A study of Arabidopsis thaliana with 8 samples.

Results

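The genes described here are the plastid genes of Arabidopsis thaliana for photosystem I (psa), photosystem II (psb), the cytochrome b6f complex (pet), the ATP synthase (atp) and the large subunit of Rubisco (rbcL). They were taken as all probe sets paired with 1 gene whose gene lies on the plastid genome and has one of these symbols, and the mitochondrial atp genes were left out. This gave 33 genes with 1 probe set each, among 13356 genes that had a probe set of their own. The genes were 5 psa, 15 psb, 6 pet and 6 atp genes and rbcL, and all 33 passed the filter on dim probe sets. The rule itself used no measured value, but it was chosen with earlier results of these data known.

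RNA came from whole 7-day-old seedlings on 8 Affymetrix arrays, 1 array for each pool of about 100 plants. The 4 groups were til1-1 at 37 °C, til1-1 at 22 °C, Col-0 at 37 °C and Col-0 at 22 °C, with 2 biological replicates each. Seedlings were collected directly after the heat shock at 37 °C or from control growth at 22 °C. Col-0 is the wild type, and til1-1 is a mutant of TIL, the gene of temperature-induced lipocalin; the labels describe 1 mutant line and do not say what the mutation is. Precision is limited by having 2 arrays a group.

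The chloroplast keeps a small genome of its own, left from its bacterial ancestor. That genome holds the core subunits of the thylakoid complexes, while the nucleus encodes most of the remaining subunits and the antenna proteins. Photosystem II takes electrons from water, the cytochrome b6f complex passes them on and pumps protons, photosystem I raises their energy for NADP reduction, and the ATP synthase uses the proton gradient to make ATP. Plastid genes are mostly transcribed together in clusters, and RNA processing and decay set much of each transcript's level. Photosystem II is the part of this chain that is known to be most sensitive to heat.

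TIL itself was measured first, as a check of the labels. Its intensity, in arbitrary units, was 5804 and 5342 in til1-1 at 37 °C, against 21246 and 20289.7 in Col-0 at 37 °C. It was 3168 and 3048 in til1-1 at 22 °C, against 3795 and 3132 in Col-0 at 22 °C. The groups did not overlap at 37 °C, where the log2 difference was -1.90 (adjusted p = 1.51e-06 by limma, as for every adjusted p of a probe set here). The groups overlapped at 22 °C, where the log2 difference of -0.15 did not pass the test (adjusted p = 1). The label of the 22 °C mutant samples therefore has no check from this probe set, and til1-1 stands throughout for the samples labelled til1-1.

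In the deposited scaling most of the 33 genes rose with heat shock in both genotypes, while quantile normalization and scaling to spiked controls turned part of them to lower, as given below. Of them, 31 were called higher and 0 lower in til1-1 at 37 °C against 22 °C, where 12.7% of all tested probe sets were called higher and 31.6% lower. In Col-0, 26 were called higher and 0 lower, where 12.4% of all tested probe sets were called higher and 31.3% lower. Without Col-0 22 °C replicate 1 the count in Col-0 was 17. The median log2 difference of the 33 genes was 0.69 in til1-1 (range 0.18 to 1.305) and 0.47 in Col-0 (range 0.14 to 0.85), while over all 17059 tested probe sets it was -0.19 and -0.18. The 2 replicates at 37 °C lay above both at 22 °C for 31 genes in til1-1, and below for 0, where 23% and 49% of tested probe sets did so. They did for 31 genes in Col-0, and below for 0, where 23.8% and 50.5% did. A call here is an adjusted p under 0.05 over all tested probe sets, on log2(intensity + 16), a scale that slightly understates the change of dim probe sets.

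The size of this rise, and for part of the genes its direction, depended on how the arrays were scaled. As deposited, the arrays shared a trimmed mean of about 500, and the array medians were 154.75 to 160.15 at 37 °C and 197.4 to 203.85 at 22 °C. With array medians set equal, all 33 genes were called higher in each genotype. With quantile normalization 12 were called higher and 1 lower in til1-1, and 11 higher and 6 lower in Col-0. With the 9 spiked controls set equal, 11 were called higher and 0 lower in til1-1, and 2 higher and 1 lower in Col-0. With the mean log2 level of the other bright probe sets set equal, a scaling added after the data were seen, the median of the 33 genes in Col-0 was -0.073. Over all tested probe sets the share of calls that were higher was 28.7% in til1-1 and 28.4% in Col-0 as deposited, 66.4% and 67.7% with equal medians, 40.4% and 40.7% with quantile normalization, and 6.67% and 6.78% with spiked controls.

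The distance of the 33 genes from the rest of the array fell under quantile normalization, as did their own median differences, which were 0.17 there in each genotype. The median of the 33 genes lay above that of all tested probe sets by 0.88 in til1-1 and by 0.65 in Col-0 as deposited, on the log2 scale. Over 24 fits for each genotype this distance was 0.23 to 0.97 in til1-1 and 0.22 to 0.74 in Col-0, with the smallest values under quantile normalization. Part of the fits, such as those without the intensity trend or with a replicate block, cannot change it, so the number of fits adds no support. A common factor on an array moves all probe sets together and leaves this distance nearly the same, so its steadiness under such scalings was fixed in advance. Quantile normalization also changes the shape of each array's distribution. Of the 33 genes, petN, psaI, psbL and petG in til1-1, and psbA and psaC in Col-0, were called higher under all 6 scalings plotted for the medians. Each other heat shock call of the 33 genes was lost in at least 1 of the other 5 scalings.

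**Figure D1:**
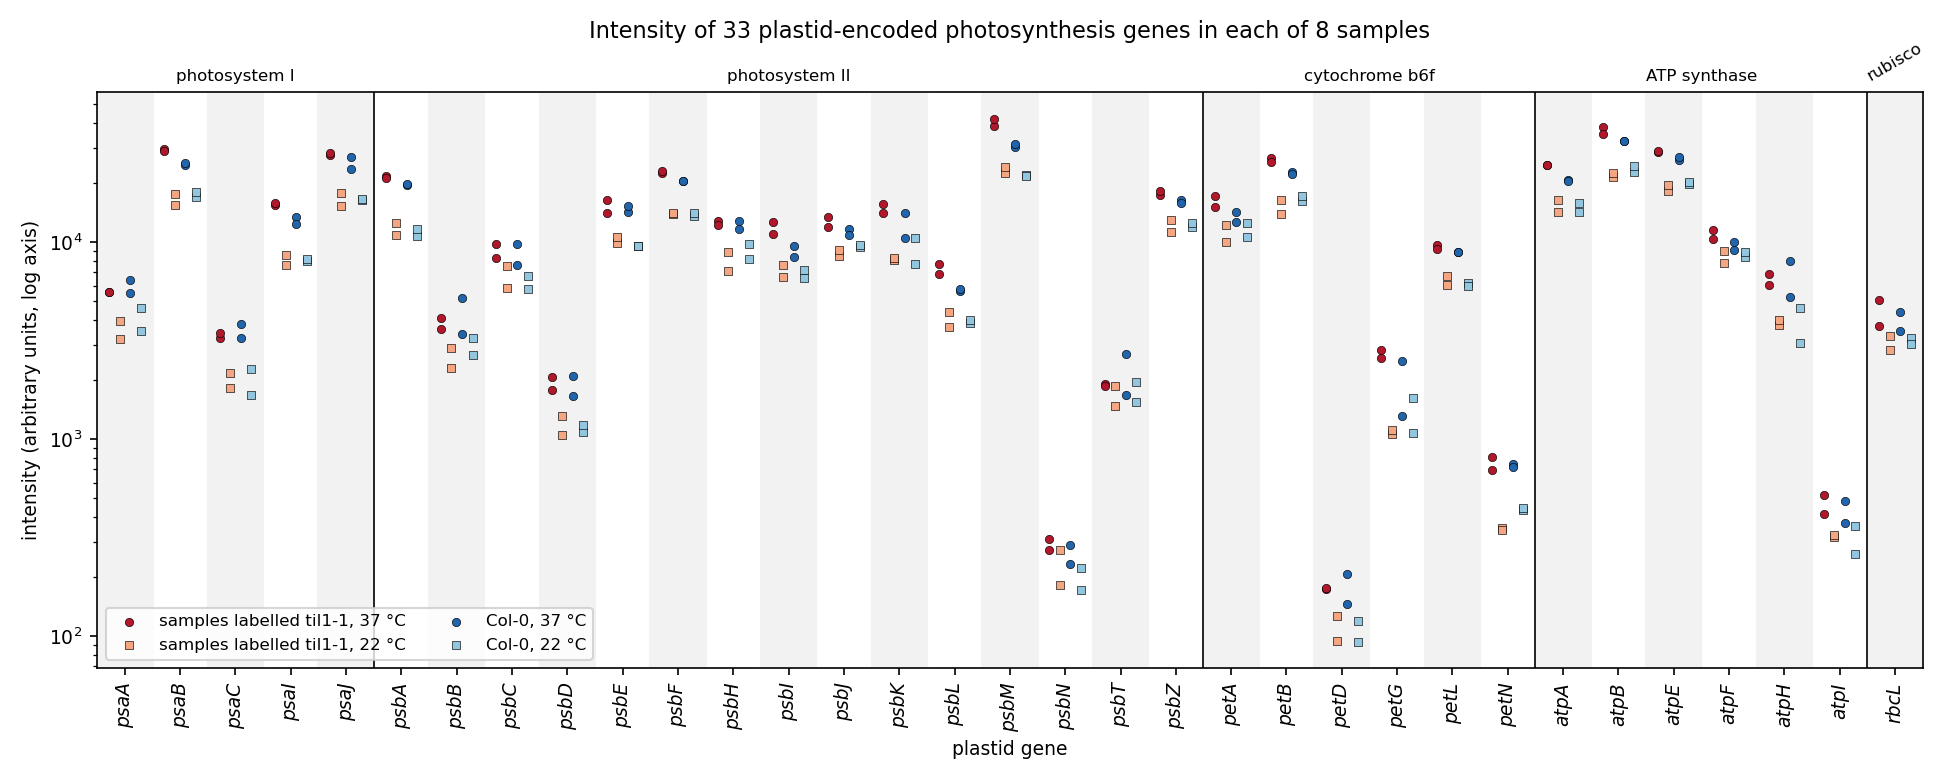
Intensity in arbitrary units, on a log axis, of 33 plastid-encoded genes in each of the 8 samples, as deposited and grouped by complex. Each point is 1 array; circles are 37 °C and squares 22 °C, in red shades for til1-1 and in blue shades for Col-0. For 31 genes in each genotype both circles lie above both squares; psbT and psbN overlap in til1-1, and psbT and petG in Col-0. Under quantile normalization and scaling to spiked controls part of these differences turned to lower at 37 °C.

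Photosystem I was represented by the reaction centre proteins psaA and psaB, by psaC, which carries the terminal iron-sulfur clusters, and by the small subunits psaI and psaJ. In the deposited scaling all 5 rose in each genotype, with a median log2 difference of 0.77 in til1-1 and 0.61 in Col-0. Quantile normalization turned psaJ in til1-1 and psaB in Col-0 to slightly lower. The intensity of psaI was 15384 and 15678 in til1-1 at 37 °C, against 7622 and 8599 in til1-1 at 22 °C, and its log2 difference of 0.94 ± 0.07 (adjusted p = 1.06e-06) was the highest of photosystem I in til1-1. In Col-0 psaI read 13386 and 12288 at 37 °C, against 7995 and 8174 at 22 °C, a log2 difference of 0.66. The 37 °C arrays were high and the 22 °C arrays low for psaI, with no overlap.

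The lowest of photosystem I in til1-1 was psaA, with 5588 and 5576 in til1-1 at 37 °C, against 3199 and 3979 in til1-1 at 22 °C, a log2 difference of 0.64 ± 0.13 (adjusted p = 0.0017). In Col-0 psaA gave 5477 and 6380.4 at 37 °C, against 3515 and 4627 at 22 °C, a log2 difference of 0.55. Here the 2 replicates at 22 °C were further apart than those of psaI, and the groups still did not overlap. psaC rose most in Col-0, with 3235 and 3833 in Col-0 at 37 °C, against 1673 and 2272 in Col-0 at 22 °C, a log2 difference of 0.85 ± 0.14 (adjusted p = 0.000324). In til1-1 psaC was 3238 and 3446 at 37 °C, against 1815 and 2158 at 22 °C. psaB, the partner of psaA in the reaction centre, rose least in Col-0, with 24509 and 25100.1 in Col-0 at 37 °C, against 16801 and 17906 in Col-0 at 22 °C, a log2 difference of 0.52 ± 0.07 (adjusted p = 0.000115). In til1-1 psaB was 29631 and 29070.4 at 37 °C, against 15317 and 17466 at 22 °C, a log2 difference of 0.84. All 4 groups of psaB were tight, and no array at 22 °C reached the level of an array at 37 °C.

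Photosystem II was the largest group, with the D1 and D2 proteins of the reaction centre (psbA and psbD), the inner antenna proteins (psbB and psbC), the subunits of cytochrome b559 (psbE and psbF), small subunits, and psbN, which is needed for assembly. As deposited, 13 of 15 rose in each genotype, with medians of 0.65 in til1-1 and 0.47 in Col-0, and psbT and psbN did not pass the test in either. The highest difference in each genotype was that of psbA, the gene of D1, with psbK and psbL close to it in til1-1 (0.85 each). With quantile normalization psbA was not called in til1-1. The intensity of psbA was 21549 and 21045 in til1-1 at 37 °C, against 10855 and 12521 in til1-1 at 22 °C, a log2 difference of 0.87 ± 0.08 (adjusted p = 2.58e-06). In Col-0 psbA was 19376 and 19768 at 37 °C, against 10745 and 11648 at 22 °C, a log2 difference of 0.81 ± 0.08 (adjusted p = 4.91e-06). Replicates of psbA lay close together, and no 22 °C array came near a 37 °C array.

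The lowest of photosystem II in til1-1 was psbT, a small subunit at the dimer interface. It gave 1894 and 1849 in til1-1 at 37 °C, against 1467 and 1860.4 in til1-1 at 22 °C, and its log2 difference was 0.18 ± 0.19 (adjusted p = 0.467). The upper til1-1 22 °C array lay between the 2 at 37 °C. In Col-0 psbT was 1675 and 2689 at 37 °C, against 1545 and 1953 at 22 °C, with a log2 difference of 0.29, and Col-0 37 °C replicate 2 alone stood high. Without that array the log2 difference of psbT in Col-0 was -0.052, and spiked controls turned its sign in both genotypes. The lowest in Col-0 was psbJ, another small subunit, with 11606 and 10833 in Col-0 at 37 °C, against 9422 and 9676 in Col-0 at 22 °C, a log2 difference of 0.23 ± 0.08 (adjusted p = 0.0279). In til1-1 psbJ was 11845 and 13371 at 37 °C, against 8473 and 9129 at 22 °C, and its log2 difference there was 0.52. The groups of psbJ did not overlap in either genotype, and quantile normalization turned it to lower in both, with spiked controls doing so in Col-0.

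Among the other psb genes, the reaction centre gene psbD had log2 differences of 0.70 in til1-1 and 0.71 in Col-0. Its neighbour psbC, for an inner antenna protein, had 0.44 and 0.47. The antenna gene psbB had 0.58 and 0.51. The cytochrome b559 genes gave 0.57 and 0.62 for psbE, and 0.70 and 0.56 for psbF. The small subunit genes psbH, psbI, psbK, psbL, psbM and psbZ lay between 0.55 (psbZ) and 0.85 (psbK) in til1-1 and between 0.38 (psbI) and 0.53 (psbL) in Col-0. Spiked controls turned psbC in til1-1, and psbH, psbI, psbK and psbZ in Col-0, to slightly lower. Quantile normalization did so for psbE, psbF and psbZ in til1-1 and for psbF, psbM and psbZ in Col-0. psbN lies on the strand opposite to its neighbours psbT and psbH, and was among the dimmest of the 33 probe sets. It was 272.1 and 309.7 in til1-1 at 37 °C, against 180.8 and 272.2 in til1-1 at 22 °C, and 288.1 and 230.6 in Col-0 at 37 °C, against 171.7 and 221.0 in Col-0 at 22 °C. In til1-1 the upper array at 22 °C lay just above the lower one at 37 °C, and the log2 difference of psbN was 0.36 ± 0.20 (adjusted p = 0.159) there and 0.38 ± 0.20 (adjusted p = 0.146) in Col-0, with the sign turned by spiked controls in both.

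The cytochrome b6f genes encode cytochrome f (petA), cytochrome b6 (petB), subunit IV (petD) and the small subunits petG, petL and petN. As deposited, all 6 rose in til1-1, with a median log2 difference of 0.70, and 4 of 6 rose in Col-0, with a median of 0.50. The exceptions in Col-0 were petA and petG. petG had the highest log2 difference of all 33 genes in til1-1, 1.305 ± 0.24 (adjusted p = 0.000887), with 2822 and 2582 in til1-1 at 37 °C, against 1056 and 1111 in til1-1 at 22 °C. In Col-0 petG was 1299.6 and 2497 at 37 °C, against 1075 and 1614 at 22 °C, and its log2 difference was 0.45 ± 0.24 (adjusted p = 0.153). The 2 Col-0 arrays at 37 °C were far apart, and the lower one fell inside the range at 22 °C. Without Col-0 37 °C replicate 2 the log2 difference of petG in Col-0 was -0.019, without replicate 1 of that group it was 0.91 (adjusted p = 0.00303), and with spiked controls it was -0.0083.

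petN, a small subunit needed for a stable b6f complex, had the highest difference in Col-0, with 747.1 and 723.5 in Col-0 at 37 °C, against 436.1 and 446.2 in Col-0 at 22 °C, a log2 difference of 0.72 ± 0.11 (adjusted p = 0.000217). In til1-1 petN was 811.5 and 694.6 at 37 °C, against 354.3 and 343.9 at 22 °C, a log2 difference of 1.07. The groups of petN were far apart in each genotype. petA was the lowest in both genotypes. It was 15009.8 and 17149 in til1-1 at 37 °C, against 9979.8 and 12122 in til1-1 at 22 °C, a log2 difference of 0.54 ± 0.11 (adjusted p = 0.00153). In Col-0 it was 12653 and 14108 at 37 °C, against 10635 and 12519 at 22 °C, a log2 difference of 0.21 ± 0.11 (adjusted p = 0.136), and the groups came close without overlapping. The genes of cytochrome b6 and subunit IV, petB and petD, had log2 differences of 0.80 and 0.60 in til1-1, and of 0.43 and 0.64 in Col-0, and petL had 0.56 and 0.55. Quantile normalization turned petA and petB to lower in both genotypes, and spiked controls did so in Col-0.

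The plastid ATP synthase genes encode the alpha, beta and epsilon subunits of the catalytic head (atpA, atpB and atpE) and membrane subunits (atpF, atpH and atpI), of which atpH forms the rotating ring. As deposited, all 6 rose in til1-1 and 4 of 6 in Col-0, with median log2 differences of 0.65 and 0.45. atpB rose most in til1-1, with 38204 and 35109 in til1-1 at 37 °C, against 21219.5 and 22413 in til1-1 at 22 °C, a log2 difference of 0.75 ± 0.07 (adjusted p = 2.95e-06). In Col-0 atpB was 32496 and 32430.4 at 37 °C, against 22707 and 24362 at 22 °C. Both genotypes showed a clear gap for atpB between the temperatures. In Col-0 the highest was atpH, with 5272 and 7985 in Col-0 at 37 °C, against 3069 and 4644 in Col-0 at 22 °C, a log2 difference of 0.78 ± 0.19 (adjusted p = 0.00541). In til1-1 atpH was 6839 and 6022 at 37 °C, against 3806 and 3992 at 22 °C. Replicate 1 of Col-0 was the lower array for atpH at each temperature.

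atpF had the lowest difference in both genotypes. It was 10398 and 11498 in til1-1 at 37 °C, against 7770.4 and 8953 in til1-1 at 22 °C, a log2 difference of 0.39 ± 0.09 (adjusted p = 0.00307). In Col-0 it was 9092 and 9990.1 at 37 °C, against 8356 and 8899 at 22 °C, and its log2 difference was 0.14 ± 0.09 (adjusted p = 0.200). The groups of atpF did not overlap in either genotype, but those of Col-0 nearly met. Its sign turned with spiked controls and quantile normalization in both genotypes, and in Col-0 also with scaling to the other plastid genes or to other bright probe sets. The head genes atpA and atpE had log2 differences of 0.69 and 0.61 in til1-1, and 0.44 and 0.42 in Col-0. Quantile normalization turned atpA and atpE to lower in both genotypes and atpB in Col-0, and spiked controls turned atpA and atpE in Col-0. The log2 difference of atpI was 0.51 ± 0.17 (adjusted p = 0.0314) in til1-1 and 0.45 ± 0.17 (adjusted p = 0.0541) in Col-0.

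rbcL encodes the catalytic subunit of Rubisco, the enzyme that fixes carbon dioxide. It was 5043 and 3753 in til1-1 at 37 °C, against 2824 and 3327 in til1-1 at 22 °C, a log2 difference of 0.50 ± 0.14 (adjusted p = 0.011). In Col-0 it was 4417 and 3536 at 37 °C, against 3246 and 3024 at 22 °C, a log2 difference of 0.33 ± 0.14 (adjusted p = 0.0698). The groups did not overlap, although replicates at 37 °C were spread more widely than the replicates at 22 °C. Spiked controls turned its sign in Col-0.

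**Figure D2:**
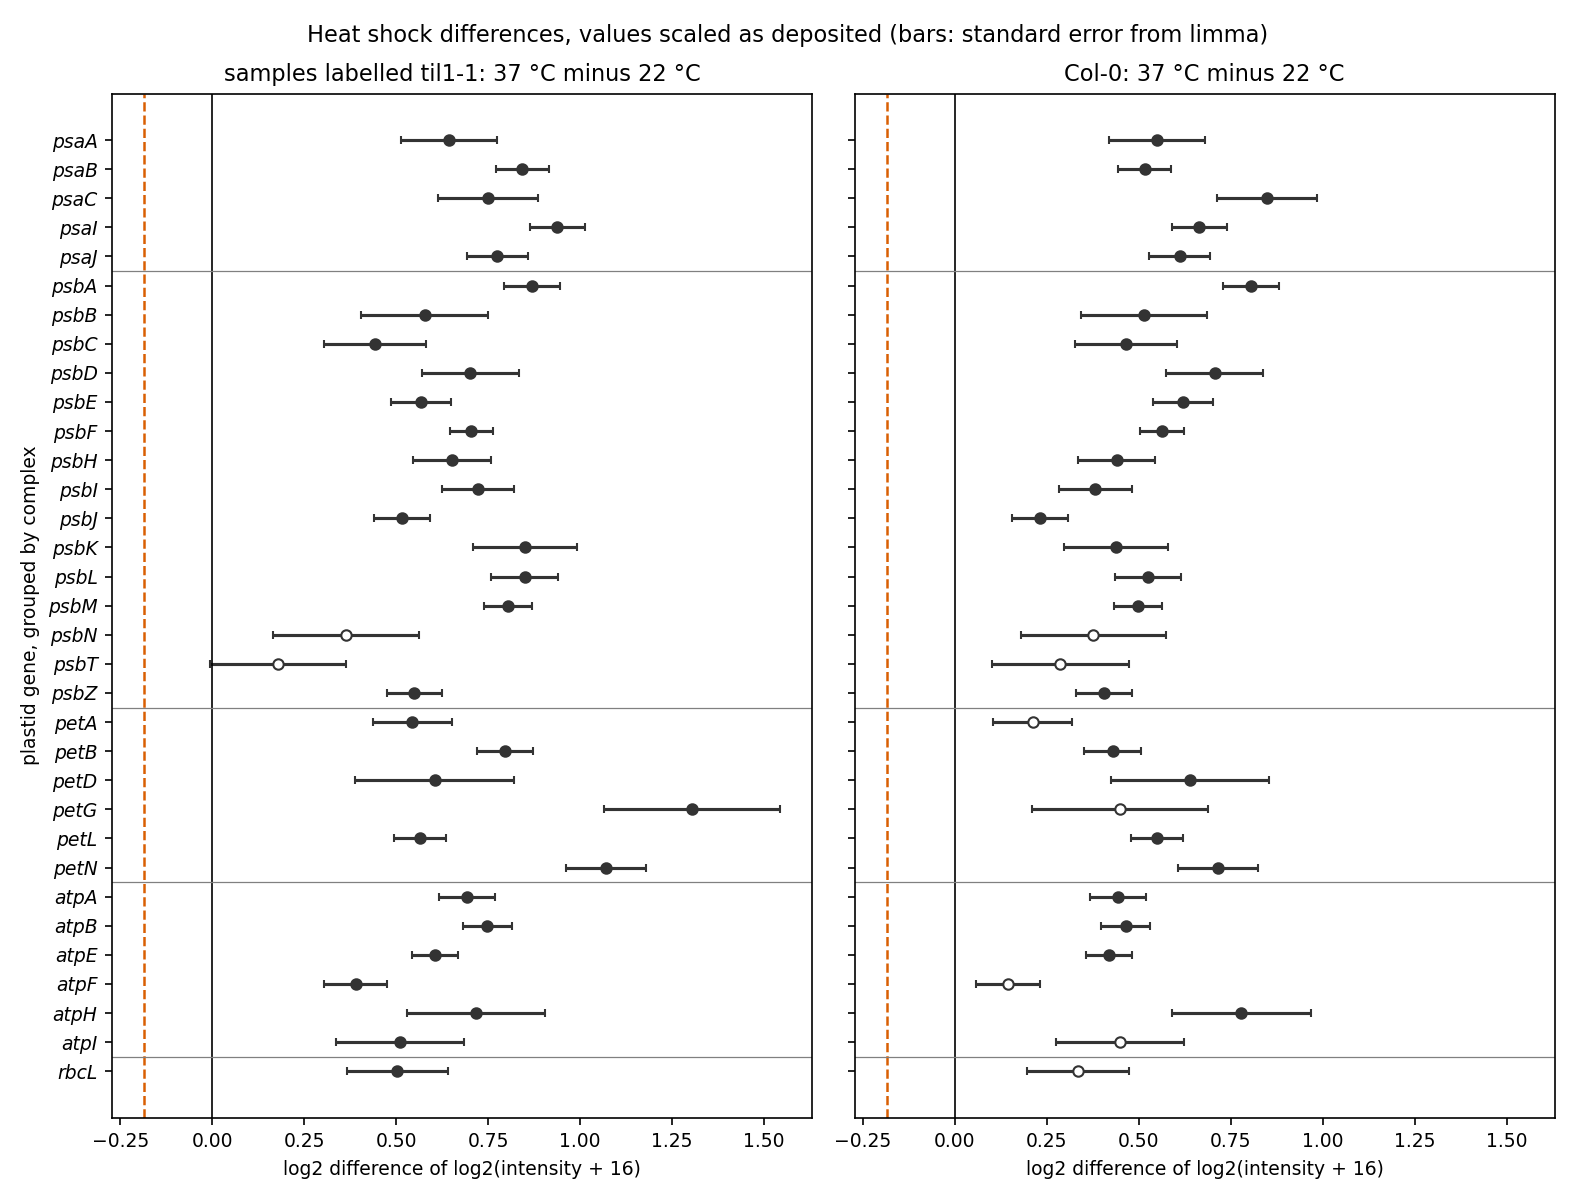
Log2 difference between 37 °C and 22 °C of each of the 33 genes in til1-1 (left) and Col-0 (right), with the standard error from limma, for values scaled as deposited. Filled points passed the test and open points did not; the dashed line is the median of all tested probe sets, at -0.19 in til1-1 and -0.18 in Col-0. All 33 points lie right of 0 in each genotype as deposited, while with spiked controls 29 in til1-1 and 19 in Col-0 did, and with quantile normalization 23 and 22.

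The complexes did not separate clearly from each other. Their medians as deposited ran from 0.65 to 0.77 in til1-1 and from 0.45 to 0.61 in Col-0, leaving out rbcL, and the ranges of the single genes overlapped widely. The order of the complexes was not tested. The mean of log2(intensity + 16) over the 33 genes was 12.86 and 12.86 in til1-1 at 37 °C, against 12.08 and 12.28 in til1-1 at 22 °C. It was 12.64 and 12.80 in Col-0 at 37 °C, against 12.13 and 12.31 in Col-0 at 22 °C. In 3 of the 4 groups replicate 2 tended to be the higher over these genes. In til1-1 at 22 °C replicate 2 was the higher for 32 of the 33 genes, with a median difference of 0.20, and in Col-0 at 22 °C for 29, with 0.12. In Col-0 at 37 °C it was the higher for 22 genes, with a median of 0.11, and in til1-1 at 37 °C for 17 genes, with a median of 0.01. The same median over all tested probe sets was -0.01 in til1-1 at 37 °C, 0.01 in til1-1 at 22 °C and 0.00 in Col-0 at each temperature.

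Several of the 33 genes are co-transcribed in clusters, and their differences varied within a cluster. In the cluster of psbB, psbT, psbH, petB and petD, differences were 0.18 to 0.80 in til1-1 and 0.29 to 0.64 in Col-0 on the log2 scale. In the cluster of psbE, psbF, psbL and psbJ they were 0.52 to 0.85 and 0.23 to 0.62. Those of the adjacent genes psbD and psbC, which overlap on the genome, were 0.70 and 0.44 in til1-1, and 0.71 and 0.47 in Col-0. Probe sets of adjacent genes may detect shared precursor transcripts, so clustered genes are not independent measurements. These values are in the deposited scaling.

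The other plastid genes had smaller median differences as deposited, and the sign of these medians depended on the scaling. Of 36 with a probe set of their own, 15 were called higher and 3 lower in til1-1, and 13 higher and 2 lower in Col-0, with median log2 differences of 0.37 and 0.18. Their medians were 0.01 and -0.14 with quantile normalization and -0.10 and -0.28 with spiked controls. The medians of the 33 genes were above theirs by 0.32 in til1-1 and 0.29 in Col-0 as deposited. Over 24 fits, part of which cannot change it, this distance was 0.16 to 0.40 in til1-1 and 0.26 to 0.36 in Col-0. It is a description, and no test was made of it. When the typical shift of the other plastid genes was set to 0, a scaling chosen after the data were seen, 20 of the 33 were called higher in til1-1 and 15 in Col-0, and 0 lower.

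Of the 10 measured genes of the NDH complex, which returns electrons to the plastoquinone pool, 8 rose in til1-1 and 5 in Col-0 as deposited, with medians of 0.52 and 0.27. With quantile normalization 4 were called higher and 1 lower in til1-1, and 1 higher and 2 lower in Col-0, and with spiked controls 1 higher and 1 lower in til1-1, and 0 higher and 2 lower in Col-0. In til1-1 the log2 differences were 0.93 for ndhD, 0.71 for ndhC, 0.65 for ndhG, 0.59 for ndhF, 0.57 for ndhI, 0.47 for ndhK, 0.41 for ndhE, 0.37 for ndhJ, 0.29 for ndhA and -0.08 for ndhH, and ndhF and ndhH did not pass the test. In Col-0 those that passed were ndhG at 0.65, ndhD at 0.60, ndhE at 0.51, ndhI at 0.33 and ndhC at 0.33. The remaining 5 in Col-0 ran from -0.25 for ndhH to 0.21 for ndhK.

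The genes of the plastid's own gene expression apparatus had smaller median differences as deposited, and their medians turned to below 0 under part of the scalings. Of 4 subunits of the bacterial-type RNA polymerase, which transcribes most photosynthesis genes, rpoA passed in til1-1 (0.44) and rpoB in Col-0 (0.85). In til1-1 rpoB had 0.38, rpoC1 0.18 and rpoC2 -0.20, and in Col-0 rpoA had 0.08, rpoC1 0.03 and rpoC2 -0.25. Of 15 ribosomal protein genes 2 rose and 3 fell in til1-1 as deposited, with a median of 0.14, and 3 rose and 2 fell in Col-0, with a median of 0.09. Their medians were -0.18 and -0.28 with quantile normalization, -0.33 and -0.37 with spiked controls, and 0.47 and 0.44 with equal array medians. The highest in til1-1 were rps14 (0.71, not called), rpl32 (0.67) and rps4 (0.62), and the lowest were rpl22 (-0.67), rpl36 (-0.54) and rps18 (-0.33). In Col-0 the highest were rps14 (0.40, not called), rpl20 (0.36) and rpl32 (0.35), and the lowest were rps18 (-0.70), rpl22 (-0.55) and rps2 (-0.26, not called). Of the 7 further plastid genes, matK (0.58 in til1-1 and 0.29 in Col-0), accD (0.52 and 0.48), cemA (0.49 and 0.37) and ccsA (0.62 and 0.40) rose in both as deposited, against medians of the 7 of 0.00 and -0.09 with quantile normalization, while ycf4 (0.39 and 0.19), clpP (0.14 and -0.24) and ycf3 (-0.25 and -0.03) did not pass.

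The contrast was visible between neighbours on the genome. Among 17 adjacent pairs of 1 of the 33 genes and 1 other plastid gene, the photosynthesis gene had the larger difference in 13 in til1-1 and 14 in Col-0, with a median gap of 0.34 and 0.31 on the log2 scale. psaJ, a photosystem I gene, had 0.77 in til1-1 and 0.61 in Col-0, while rpl33 beside it had -0.14 and -0.20 and rps18 next to that had -0.33 and -0.70. atpI had 0.51 and 0.45, and rps2 beside it -0.21 and -0.26. psaA had 0.64 and 0.55, and ycf3, for a photosystem I assembly factor, -0.25 and -0.03. petD had 0.60 and 0.64, and rpoA beside it 0.44 and 0.08. The other gene was larger in til1-1 for rps14 (0.71) beside psbZ (0.55) and ndhC (0.71) beside atpE (0.61). It was also larger there for ndhD (0.93) beside psaC (0.75) and accD (0.52) beside rbcL (0.50). In Col-0 it was larger for rpoB (0.85) beside petN (0.72), accD (0.48) beside rbcL (0.33) and cemA (0.37) beside petA (0.21). Genes with other plastid genes on both sides, such as psaI and psaC, count more than once.

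**Figure D3:**
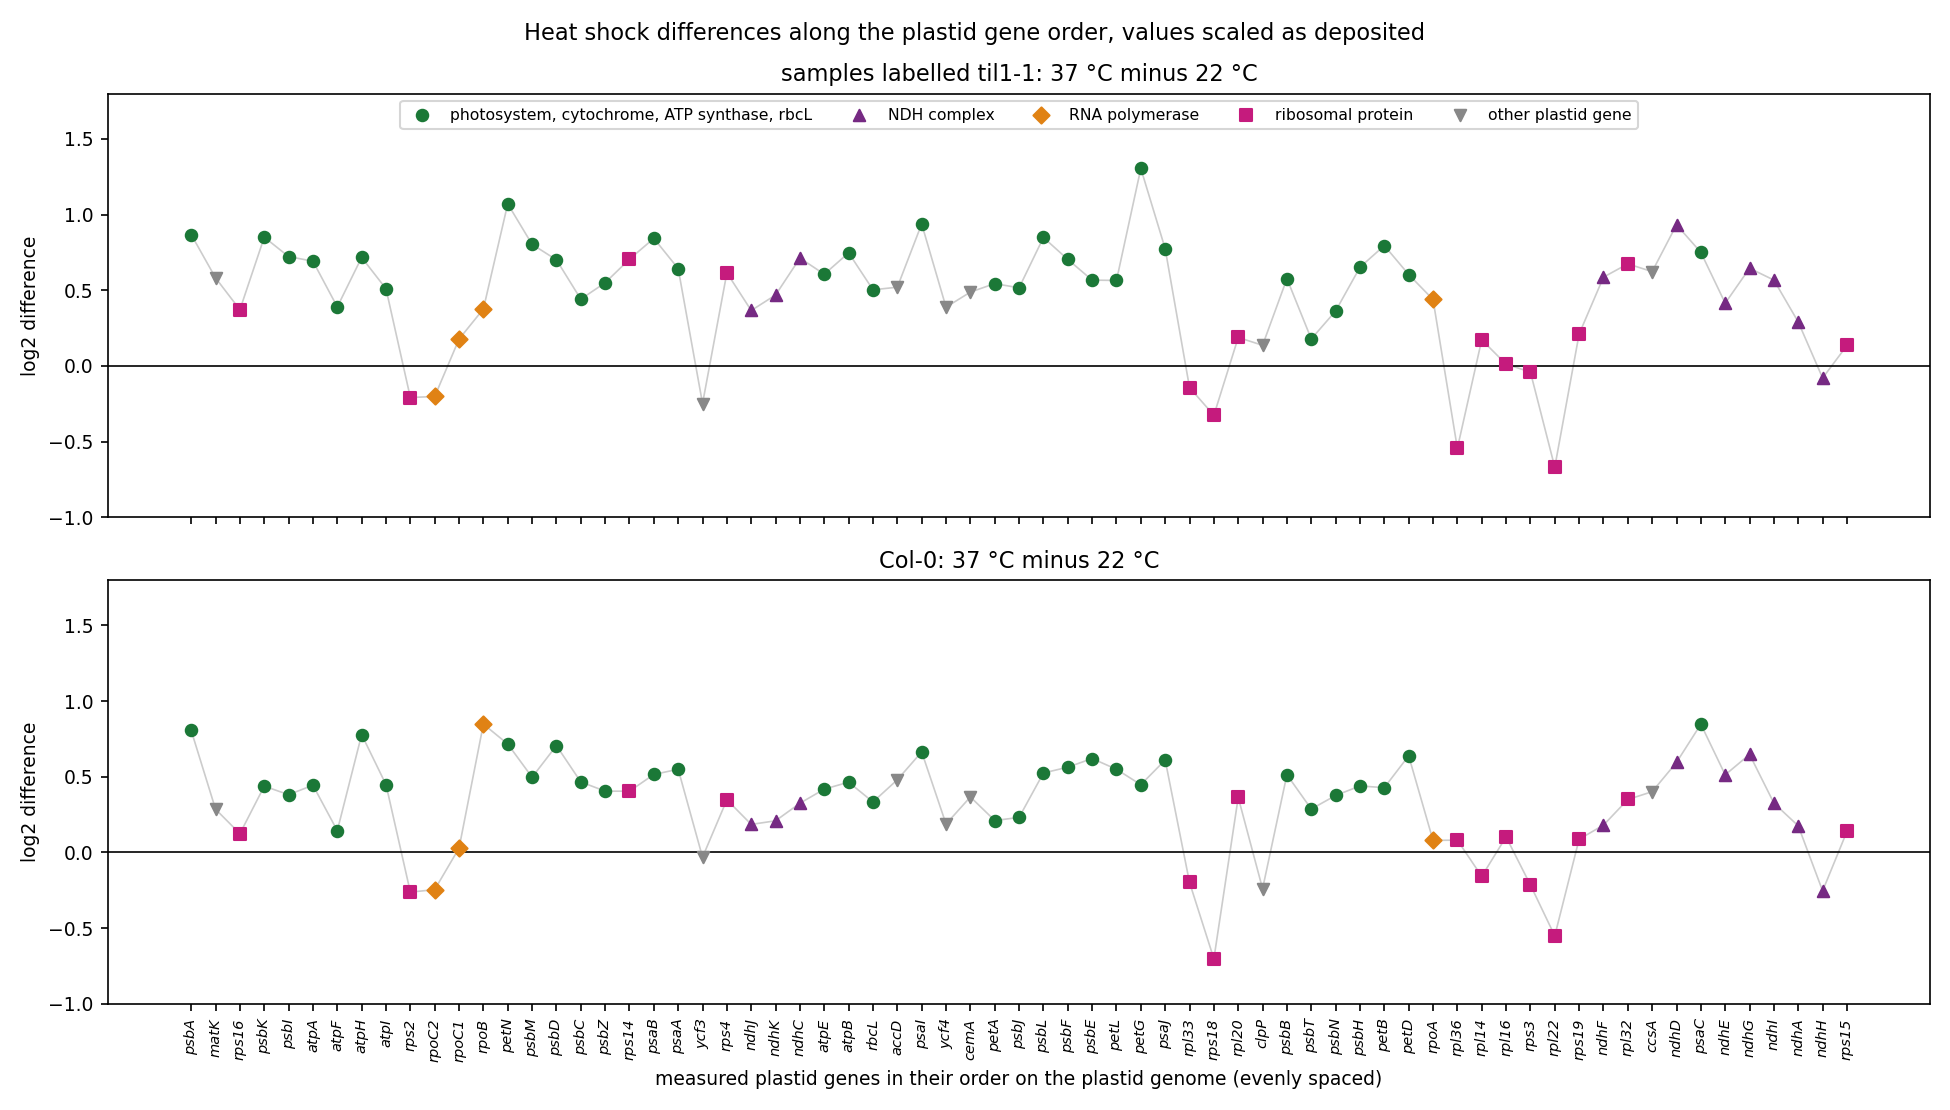
Log2 difference between 37 °C and 22 °C, as deposited, of all 69 plastid genes measured with a probe set of their own, in their order on the plastid genome and evenly spaced, in til1-1 (top) and Col-0 (bottom). Circles are the 33 photosynthesis genes and the other markers are further plastid genes. The circles stay above 0, while points below 0 are ribosomal protein genes, rpoC2, ycf3, clpP (Col-0) and ndhH; with quantile normalization or spiked controls part of the circles also lay below 0.

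The 33 probe sets were also among the brightest on the arrays, with 25 of 33 in the top 5% by mean intensity over all samples. Of the 1088 other probe sets in that top 5%, 41.7% were called higher in til1-1 and 41.5% in Col-0, with median log2 differences of 0.14 in each. All 25 of the bright photosynthesis probe sets were called higher in til1-1 and 22 in Col-0, with medians of 0.69 and 0.47. The highest value on an array was 42796 and 42240.4 in til1-1 at 37 °C, against 24594 and 25816 in til1-1 at 22 °C, and 36939 and 38127 in Col-0 at 37 °C, against 25275 and 26334 in Col-0 at 22 °C. The brightest of the 33, psbM, a small subunit of photosystem II, read 38619.5 and 42240.4 in til1-1 at 37 °C, against 22411 and 23886 in til1-1 at 22 °C, and was thus the top value of 1 array. When the typical shift of the other bright probe sets was set to 0, which was also chosen after the data were seen, 27 of the 33 were called higher in til1-1 and 21 in Col-0, and 0 lower.

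**Figure D4:**
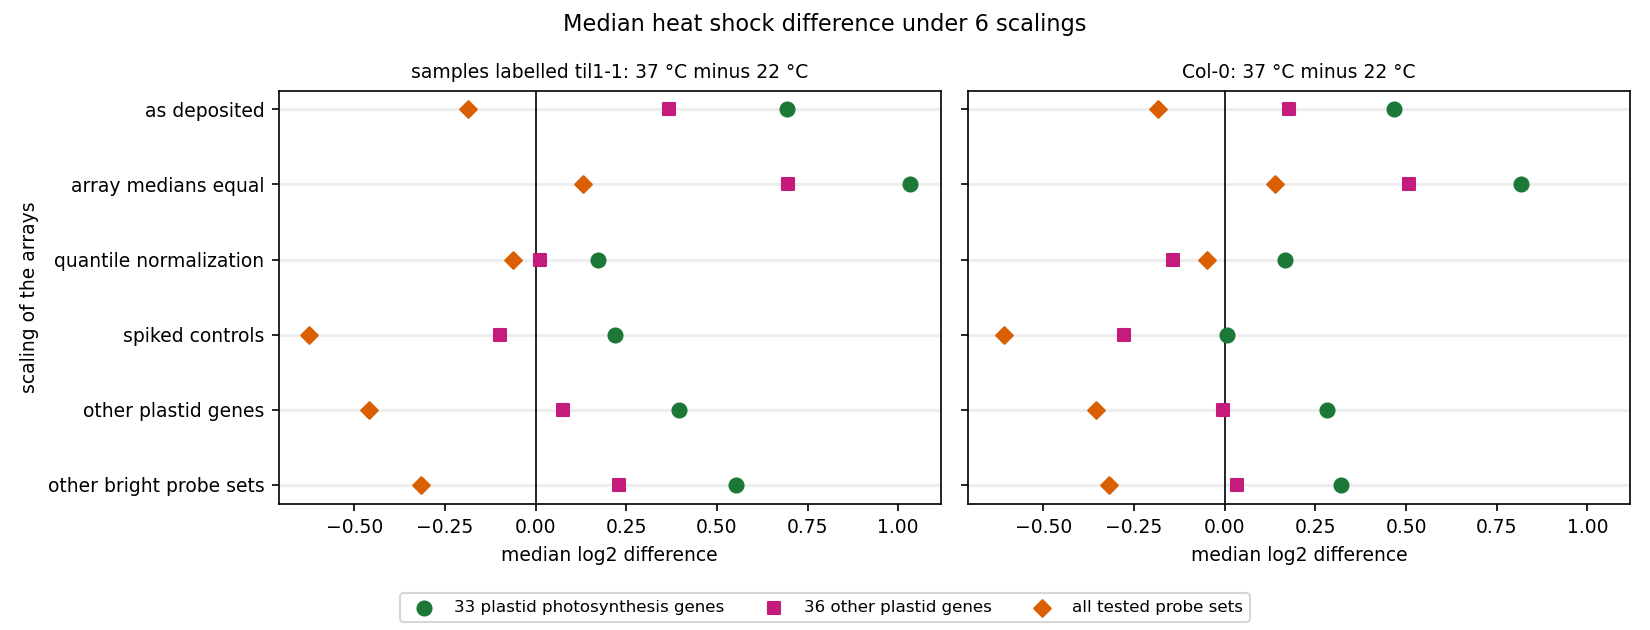
Median log2 difference between 37 °C and 22 °C in til1-1 (left) and Col-0 (right) under 6 ways of scaling the arrays, for the 33 photosynthesis genes (circles), 36 other plastid genes (squares) and all tested probe sets (diamonds). The circles lie right of the squares and of the diamonds in each row, from 0.17 to 1.03 in til1-1 and from 0.01 to 0.82 in Col-0, and come nearest to the diamonds under quantile normalization. The scalings to other plastid genes and to other bright probe sets were chosen after the data were seen. A further scaling of this kind, equal mean log2 of the other bright probe sets, is not plotted. It gave medians of 0.13 for the 33 genes in til1-1 and -0.073 in Col-0.

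RNA of other kinds moved with temperature beside these genes. The control probe set for 25S ribosomal RNA, an RNA with no poly(A) tail, read 2399 and 3625 in til1-1 at 37 °C, against 269.8 and 410.4 in til1-1 at 22 °C. It read 1828 and 3967 in Col-0 at 37 °C, against 335.3 and 368.6 in Col-0 at 22 °C. The ratio of 3′ to 5′ signal of actin was 2.13 and 2.04 in til1-1 at 37 °C and 1.56 and 1.73 in til1-1 at 22 °C, and 2.16 and 1.86 in Col-0 at 37 °C and 1.75 and 1.74 in Col-0 at 22 °C. That of ubiquitin was instead lower with heat in til1-1, at 0.892 and 1.09 in til1-1 at 37 °C and 1.16 and 1.23 in til1-1 at 22 °C, and 1.06 and 1.12 in Col-0 at 37 °C and 1.14 and 1.18 in Col-0 at 22 °C. That of GAPDH lay between 0.915 and 1.04 on all 8 arrays. Of the 17 tested probe sets of the mitochondrial genome 16 were called higher in til1-1 and 15 in Col-0, with median log2 differences of 3.24 and 3.02 against 0.69 and 0.47 for the 33 plastid genes. Under the 6 scalings these mitochondrial medians were 2.80 to 3.56 in til1-1 and 2.61 to 3.33 in Col-0, and 0 were called lower. The highest were nad6 (6.78 in til1-1 and 6.58 in Col-0) and 2 probe sets of nad5 (5.44 and 4.83 in til1-1, 5.59 and 4.95 in Col-0). The lowest were 2 probe sets of nad1 (0.98 each in til1-1, of which 1 passed, and 0.54 and 0.72 in Col-0, not called) and nad4 (1.35 and 1.05). Whether these shifts have a part in the rise of the plastid genes was not tested.

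Marker genes of green tissue and of root also differed between the temperatures as deposited. Fewer cells of a type cannot be told apart from less RNA per cell. The green tissue markers RCA, LHCB4.1, LHCB4.2 and PSAE-1 all rose in til1-1 and 3 of 4 did in Col-0 as deposited, LHCB4.2 not passing, while quantile normalization turned all 4 to lower differences in each genotype. With spiked controls 3 of the 4 were positive in til1-1 (median 0.15) and 0 in Col-0 (median -0.08). LHCB4.3 and ATPC2, which are not among these markers, were at -0.50 and -0.26 in til1-1 as deposited. The mean log2 level of the 4 green tissue markers was 14.43 and 14.50 in til1-1 at 37 °C, against 13.79 and 13.90 at 22 °C. In Col-0 it was 14.23 and 14.31 at 37 °C, against 13.87 and 14.00 at 22 °C. The root markers EXPA7, EXPA18 and PYK10 fell in each genotype, under all 6 scalings, with deposited log2 differences of -1.73, -1.61 and -0.84 in til1-1 and -1.20, -1.19 and -0.67 in Col-0. Their mean log2 level was 8.62 and 8.86 in til1-1 at 37 °C, against 10.15 and 10.13 at 22 °C, and 9.22 and 9.45 in Col-0 at 37 °C, against 10.39 and 10.32 at 22 °C. No marker of either tissue was near 0, in whole seedlings as labelled. The part of tissue balance in the values of the plastid genes was not tested.

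Nuclear genes of the same complexes, 7 of which had a probe set of their own among 37 listed, also rose as deposited, 6 in til1-1 and 5 in Col-0, while with quantile normalization 4 in til1-1 and 6 in Col-0 were called lower. Their median log2 differences were 0.55 and 0.29, with 0 lower. They were PSAE-1 (0.78 in til1-1 and 0.42 in Col-0) and PSAN (0.55 and 0.30) of photosystem I, PSBY (0.57 and 0.21) and PSBW (0.28 and 0.29) of photosystem II, RCA for Rubisco activase (0.62 and 0.37), and the ATP synthase gamma subunit genes ATPC1 (0.31, and 0.11 not called) and ATPC2 (-0.26 and 0.04, not called). With spiked controls 4 of these 7 nuclear genes were positive in til1-1 (median 0.08) and 0 in Col-0 (median -0.17). PSAE-1 and RCA are also among the green tissue markers, as are LHCB4.1 and LHCB4.2 below, so these are not separate observations. Of the light-harvesting antenna genes only 3 of 20 listed were measured. LHCB4.1 had 0.62 and 0.39, LHCB4.2 had 0.45 and 0.17, and LHCB4.3 had -0.50 and -0.25, of which the 3 in til1-1 and LHCB4.1 in Col-0 passed. With quantile normalization all 3 had negative differences in each genotype. None of 43 listed nuclear factors for plastid transcription and RNA processing had a probe set paired with 1 gene, so that they were not analysed here.

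Between the genotypes, none of the 33 genes passed the test in the fit of the 4 groups. At 37 °C 0 were called, as were 0.00586% of tested probe sets higher and 0.00586% lower. Each share is 1 probe set of 17059, and the 1 called lower was TIL itself. The test thus called few probe sets of any kind between the genotypes. Over the 33 genes the median log2 difference of til1-1 minus Col-0 was 0.14, and 28 of 33 were positive. An unadjusted p under 0.05 was found for 12 of the 33 genes (36.4%), against 13.4% of all tested probe sets. The share was 27.8% for the 36 other plastid genes and 24.2% for the other probe sets in the top 5% by intensity. Clustered genes are not independent measurements, so these shares are a description. Both til1-1 arrays lay above both Col-0 arrays for 18 genes and below for 0, against 20.9% and 18.5% of tested probe sets. The 36 other plastid genes had the same median of 0.14. The tissue markers moved beside it without passing the test. The root markers EXPA7, EXPA18 and PYK10 had log2 differences of -0.82, -0.68 and -0.28 at 37 °C, each with an unadjusted p under 0.05, and the 4 green tissue markers had a median of 0.19 with 4 of 4 positive. The part of the markers in the genotype difference was not tested. With quantile normalization the median of the 33 was 0.05, and with spiked controls 0.26.

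The differences with the lowest p at 37 °C were in small subunits of photosystem II. For psbM, intensities were 38619.5 and 42240.4 in til1-1 at 37 °C, against 30253 and 31312 in Col-0 at 37 °C, a log2 difference of 0.39 (95% confidence interval 0.25 to 0.54, adjusted p = 0.103). For psbI they were 10987 and 12554 in til1-1, against 8333 and 9576 in Col-0, a difference of 0.39 (95% confidence interval 0.18 to 0.61, adjusted p = 0.147). For psbL they were 6885 and 7716 in til1-1, against 5636 and 5758 in Col-0, a difference of 0.35 (95% confidence interval 0.16 to 0.55, adjusted p = 0.151). The 2 til1-1 arrays were above the 2 Col-0 arrays for each of these genes. The fit of the 4 groups did not call them, and a fit with a replicate block, given at the end, differed for psbM and psbI. petG had the largest difference at 37 °C, 0.58 (95% confidence interval 0.06 to 1.101, adjusted p = 0.331), with the 2 Col-0 arrays far apart. It was 0.11 without Col-0 37 °C replicate 1 and 1.05 without replicate 2.

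At 22 °C the genotypes were close. Again 0 of the 33 genes were called, with 0.00586% of tested probe sets higher and 0% lower, and 1 gene had an unadjusted p under 0.05 (3.03%, against 3.85% of all tested). The median log2 difference was 0.00, and 16 of 33 were positive. Leaving out 1 array at 22 °C gave 5 positive with a median of -0.11 without til1-1 replicate 2, 7 with -0.10 without Col-0 replicate 1, 23 with 0.09 without til1-1 replicate 1, and 23 with 0.05 without Col-0 replicate 2. Arrays of til1-1 lay above those of Col-0 for 2 genes and below for 4, against 18.3% and 19.9% of tested probe sets. The gene with the low p was petN, with 354.3 and 343.9 in til1-1 at 22 °C, against 436.1 and 446.2 in Col-0 at 22 °C, a log2 difference of -0.32 (adjusted p = 1).

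The difference of the heat shock responses was tested as well, since 31 calls in til1-1 and 26 in Col-0 do not show that the genotypes differ. Of the 33 genes 0 were called, with 0% of tested probe sets higher and 0.00586% lower. The 1 probe set called lower was TIL, with a log2 difference of -1.75. The response was larger in til1-1 for 25 of the 33 genes, with a median difference of 0.17. The median was 0.056 with 21 positive without til1-1 22 °C replicate 1, 0.27 with 31 positive without replicate 2 of that group, and 0.29 with 31 positive without Col-0 22 °C replicate 1. With all samples 11 had an unadjusted p under 0.05 (33.3%, against 6.78% of all tested). The share was 27.8% for the 36 other plastid genes and 12.2% for the other probe sets in the top 5% by intensity. The 33 genes tended to move together between replicates at 22 °C, so they are not independent and these shares are a description. The 5 genes called in til1-1 and not in Col-0 were atpF, atpI, petA, petG and rbcL, none of them called for the difference. For petG it was 0.86 (95% confidence interval 0.12 to 1.60, adjusted p = 0.689; 0.39 and 1.32 without replicate 1 and 2 of Col-0 at 37 °C), for petB 0.37 (95% confidence interval 0.13 to 0.60, adjusted p = 0.62), for psaB 0.33 (95% confidence interval 0.10 to 0.55, adjusted p = 0.62) and for psbM 0.31 (95% confidence interval 0.10 to 0.51, adjusted p = 0.62). The 36 other plastid genes had a median of 0.17 too. With quantile normalization the median over the 33 genes was 0.11.

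**Figure D5:**
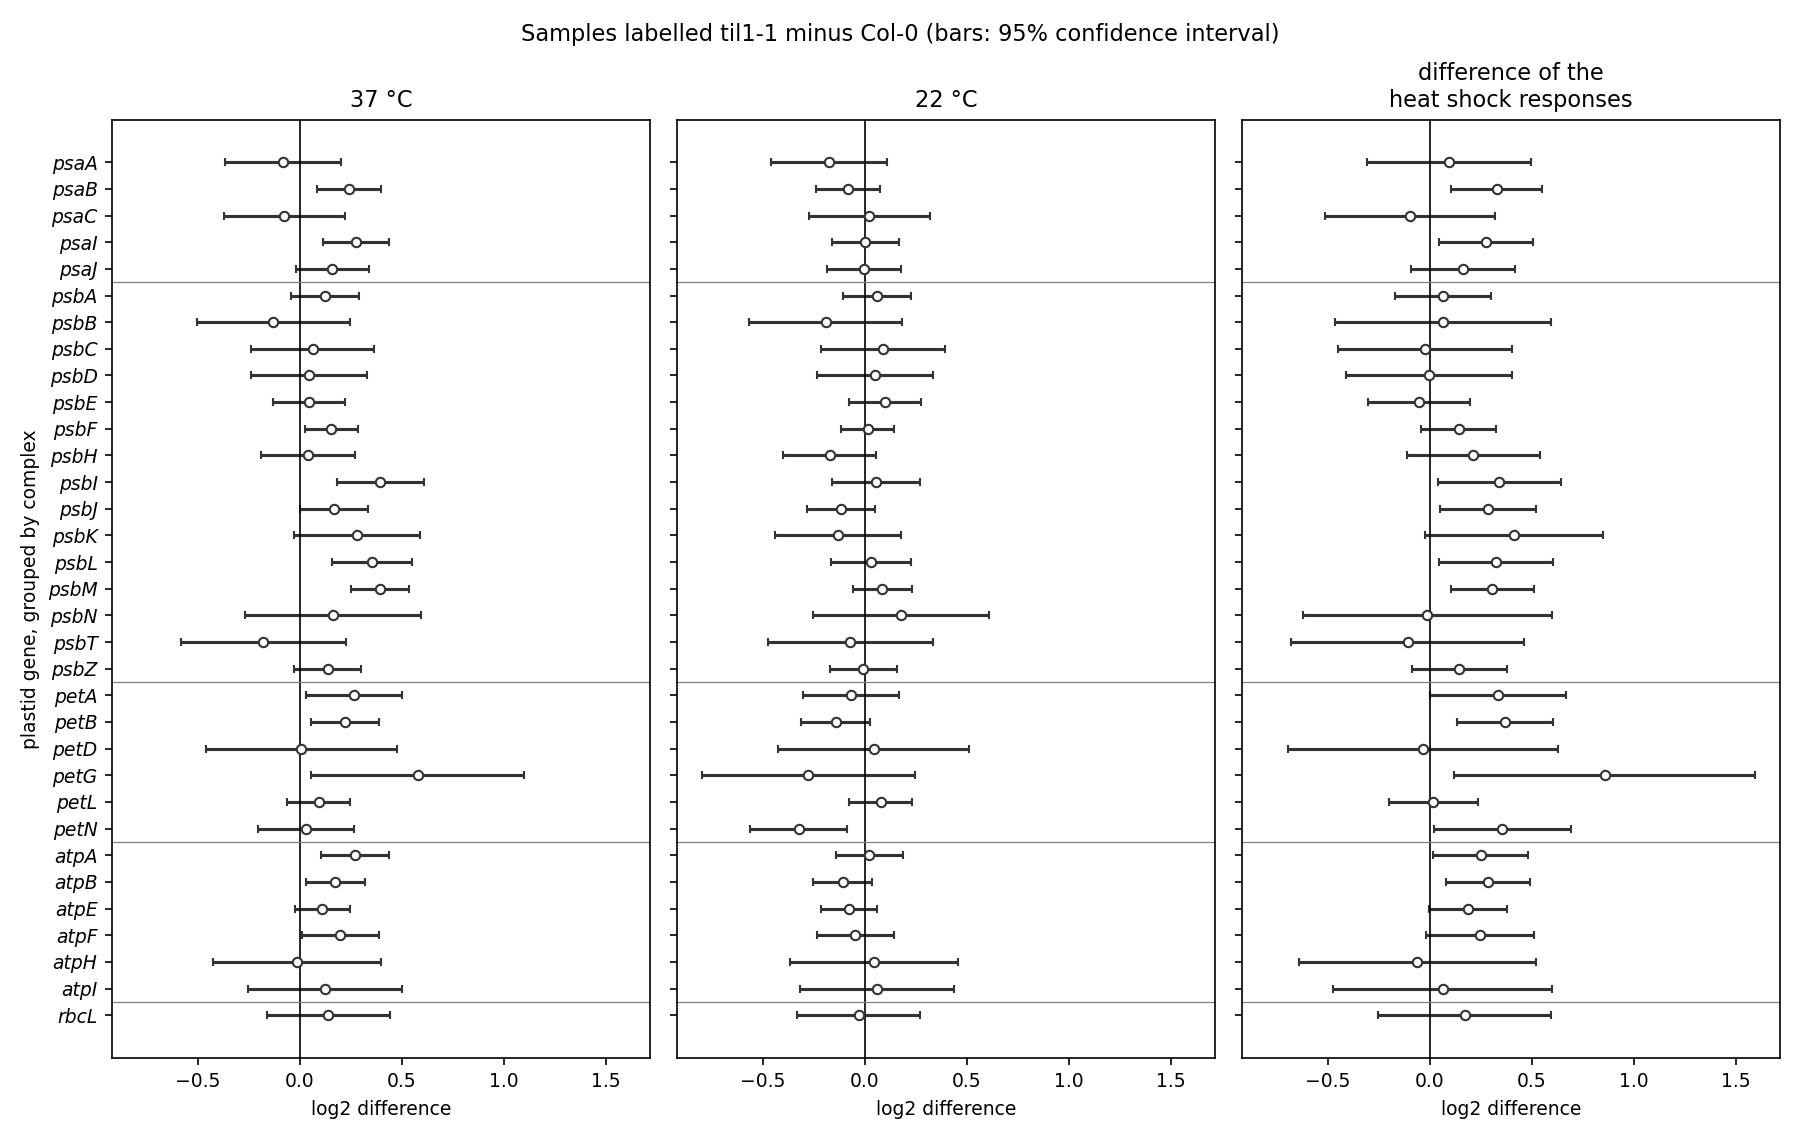
Log2 difference of til1-1 minus Col-0 for each of the 33 genes at 37 °C (left), at 22 °C (middle) and for the heat shock response (right), as deposited, with 95% confidence intervals from limma. None passed the test after adjustment over all tested probe sets; 28, 16 and 25 of the 33 points lie right of 0, and with quantile normalization 23, 18 and 23 did.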

How the data were processed

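The authors' deposited table gave 1 linear intensity per probe set and array, which had been computed in GCOS per the submitters' processing notes; the GCOS version, the algorithm and the genome build behind the probe sets stay unstated in those sources. The platform annotation paired 13513 of the 22810 probe sets with 1 gene and 503 with several; 64 were controls and 8730 had no entry. Genes of the plastid and mitochondrial genomes were recognised by chromosome in the RefSeq gene table (assembly TAIR10.1) rather than by gene ID as planned, and mitochondrial genes also by symbol. Start coordinates from that gene table were used only to put the plastid genes in order, and no sequences were used.

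Tests used log2(intensity + 16). After removal of controls, the dimmest 25% of probe sets by mean log2 value were dropped, and 17059 were tested. A linear model (limma 3.58.1, R 4.3.3) held the 4 groups of 8 samples, with 4 residual degrees of freedom and eBayes moderation that follows intensity; p-values were adjusted by Benjamini-Hochberg across the whole table, with calls under 0.05. Errors after ± are standard errors from this fit. The fit was tested on simulated data. Comparisons were made of temperature within genotype, of genotype within temperature, and of the 2 responses with each other. Alternatives were pseudocounts of 1 and 64, no filter, other scalings, no trend, only the 4 samples of a comparison, a replicate block and leaving out each sample. Per-sample values were given for the genes with the highest and lowest heat shock difference of each complex in either genotype; other lists were named in full up to 10 genes and otherwise by their 3 highest and 3 lowest. psbN, psbM, psbI and psbL were given per sample in addition, chosen after their values were seen. The genes and lists were chosen with earlier results of these data known. Intensities carry no read depth.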

Additional observations from a re-analysis of the deposited data

How the results depend on the processing

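The counts of genes called higher by heat shock depended on the scaling. Quantile normalization gave 12 higher and 1 lower in til1-1 and 11 higher and 6 lower in Col-0; spiked controls gave 11 higher in til1-1 and 2 higher and 1 lower in Col-0. Of the scalings added after seeing the data, setting the typical shift (the median over genes of the deviation from each gene's mean) of the other plastid genes to 0 gave 20 in til1-1 and 15 in Col-0. Equal mean log2 of the other bright probe sets gave 11 higher in til1-1, and 2 higher and 3 lower in Col-0 with a median of -0.073; that mean includes strongly induced genes. Equal median levels of the other plastid genes gave 1 gene called higher for the difference of responses, against 0. The last scalings, by means or median levels, were run for counts and medians only. Under quantile normalization the log2 differences that turned negative were atpA -0.12, atpF -0.098, psbZ -0.13, atpE -0.19, petA -0.085, psbJ -0.0066, psbF -0.084, psbE -0.027, psaJ -0.028 and petB -0.022 in til1-1, and atpA -0.21, atpF -0.25, psbM -0.10, psbZ -0.16, psaB -0.065, atpE -0.20, atpB -0.11, petA -0.29, psbJ -0.19, psbF -0.089 and petB -0.20 in Col-0. With spiked controls they were atpF -0.082, psbC -0.031, psbT -0.29 and psbN -0.081 in til1-1, and psbK -0.022, psbI -0.078, atpA -0.016, atpF -0.32, psbZ -0.055, atpE -0.042, rbcL -0.12, petA -0.25, psbJ -0.23, petG -0.0083, psbT -0.17, psbN -0.053, psbH -0.021 and petB -0.032 in Col-0. With the typical shift of the other plastid genes at 0 they were psbT -0.12 in til1-1 and atpF -0.040 in Col-0, and with that of other bright probe sets atpF -0.0024 in Col-0. Without Col-0 37 °C replicate 2, petG was at -0.019 and psbT at -0.052 in Col-0, and without replicate 1 of that group at 0.91 and 0.63. Leaving out 1 sample at a time gave 26 to 31 genes higher in til1-1 and 17 to 28 in Col-0, with 17 without Col-0 22 °C replicate 1, and 0 in each genotype comparison. The replicate numbers do not pair samples by the labels, and same-numbered deviations correlated at -0.04 to 0.14 over all tested probe sets, and over the 33 genes at -0.11 to 0.14 in 5 pairs of groups and at 0.73 between Col-0 at 37 °C and at 22 °C; with the replicate number as a block, 31 genes were higher in til1-1, 29 in Col-0 and 2 at 37 °C between genotypes (psbM, adjusted p = 0.0298, and psbI, adjusted p = 0.0414, by limma), against 0. The causes of these changes were not tested. No filter gave 28 and 22 higher, and no trend 25 and 21. The single genes were compared over all alternatives except the scalings by means or median levels. Of these values, 543 in til1-1 and 509 in Col-0 kept their direction and side of the threshold. A further 65 and 66 kept only the direction, 4 and 23 newly passed, and 15 and 29 turned their sign. Part of these fits, such as those leaving out an array of the other genotype, cannot move the difference. No detection call accompanied the intensities, so signal over background is unknown.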
